A study of Mus musculus with 14 samples.

Results

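The vascular endothelial growth factor family was followed in mouse heart after experimental infarction. Its 10 members were the 5 ligands Vegfa, Vegfb, Vegfc, Figf (now named Vegfd) and Pgf, the 3 receptor tyrosine kinases Flt1, Kdr and Flt4, and the 2 neuropilin co-receptors Nrp1 and Nrp2. They were found by gene name, reached through the transcript accession that the array files give for each probe, and were read by 13 of 55482 probes. Gene names could be given to 20614 genes in all. Samples were border-zone ventricle from 8-week-old male C57BL/6 mice, 1 sample per array. In the 5 MI 14 days samples and the 5 MI 3 days samples the left anterior descending coronary artery had been tied off permanently, 14 and 3 days before harvest. The 4 sham samples came from mice that had the same operation without the ligation, and their harvest time was not given. No group carried a genetic change or received a drug.

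VEGF ligands are secreted dimers that bind receptor tyrosine kinases on endothelial cells and drive vessel sprouting, permeability and survival. VEGF-A signals mainly through VEGFR2 (Kdr), while VEGFR1 (Flt1) binds VEGF-A, VEGF-B and placental growth factor tightly and, as a soluble form, acts as a decoy. VEGF-C and VEGF-D act on VEGFR3 (Flt4), the receptor known for lymphatic vessel growth, and VEGF-C after proteolytic processing also on VEGFR2. In the heart, VEGF-A and VEGF-B are made largely by cardiomyocytes, and VEGF-A transcription is a classical response to low oxygen.

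All 13 probes were well above background on all 10 arrays that had scanner files (4 of MI 14 days, 2 of MI 3 days and 4 of sham), and no spot was saturated. Of all probes, 32261 were bright enough to be tested. Levels are log2 signals minus the array's own 75th percentile, a quantity that was 188.6 to 443 signal units over the arrays. Levels of different probes cannot be set against each other. The lowest correlation between 2 arrays of a group was 0.979 in MI 14 days, 0.987 in MI 3 days and 0.989 in sham. MI 14 days replicate 3 stood apart on the second principal component (-76.21, with the other 13 arrays between -41.57 and 41.23). Cardiomyocyte markers were abundant in every group, with a mean level over 10 genes of 8.03 to 8.70 in MI 14 days, 7.26 to 7.53 in MI 3 days and 8.61 to 8.79 in sham samples. The labels do not say that each sample is 1 animal, so p-values measure the spread between these samples.

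Each gene was counted by its brightest probe, the one with the highest mean level over the 14 arrays, which is probe 1 where there are 2. For Kdr, probe 2 had the higher signal in sham (4.04 against 3.91) and at 14 days (3.81 against 3.77), but not at 3 days (3.21 against 3.72). The counts of genes below thus leave Kdr out, although its probe 2 passed at 3 days against sham and between the times. At 3 days 7 of 10 members passed the test against sham (limma, adjusted p under 0.05), 3 higher and 4 lower, when 65.2% of all tested probes passed it (25.5% higher and 39.7% lower), so the count is near the background. At 14 days 4 of 10 members passed against sham, 2 higher and 2 lower, with a background of 32.5% (12.8% higher and 19.8% lower). Between the times 7 of 10 passed, 6 higher and 1 lower at 14 days, with a background of 55.6% (32.7% higher and 22.9% lower). Of the 13 probes, 7 had no overlap between the arrays of MI 3 days and sham (56.8% of all tested probes), 4 between MI 14 days and sham (27.4%) and 5 between MI 14 days and MI 3 days (40.0%). Without MI 14 days replicate 3 the members past the threshold numbered 8, 4 and 6 in the 3 comparisons. Of all 32261 tested probes, 21446, 9017 and 18325 then passed. The median log2 change of the 10 members was 0.00 at 3 days and -0.11 at 14 days against sham, beside -0.19 and -0.09 over all tested probes. What sets the members apart from each other is their direction: Figf was higher at both times, Vegfb was lower at both times, and Pgf was higher at 3 days and lower at 14 days. Flt1, Nrp1 and, by probe 1 only, Vegfa were lower at 3 days with no call at 14 days. Vegfa probe 2 did not pass at 3 days (-0.26, adjusted p = 0.147). The comparisons share arrays, so they are not independent of each other.

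**Figure D1:**
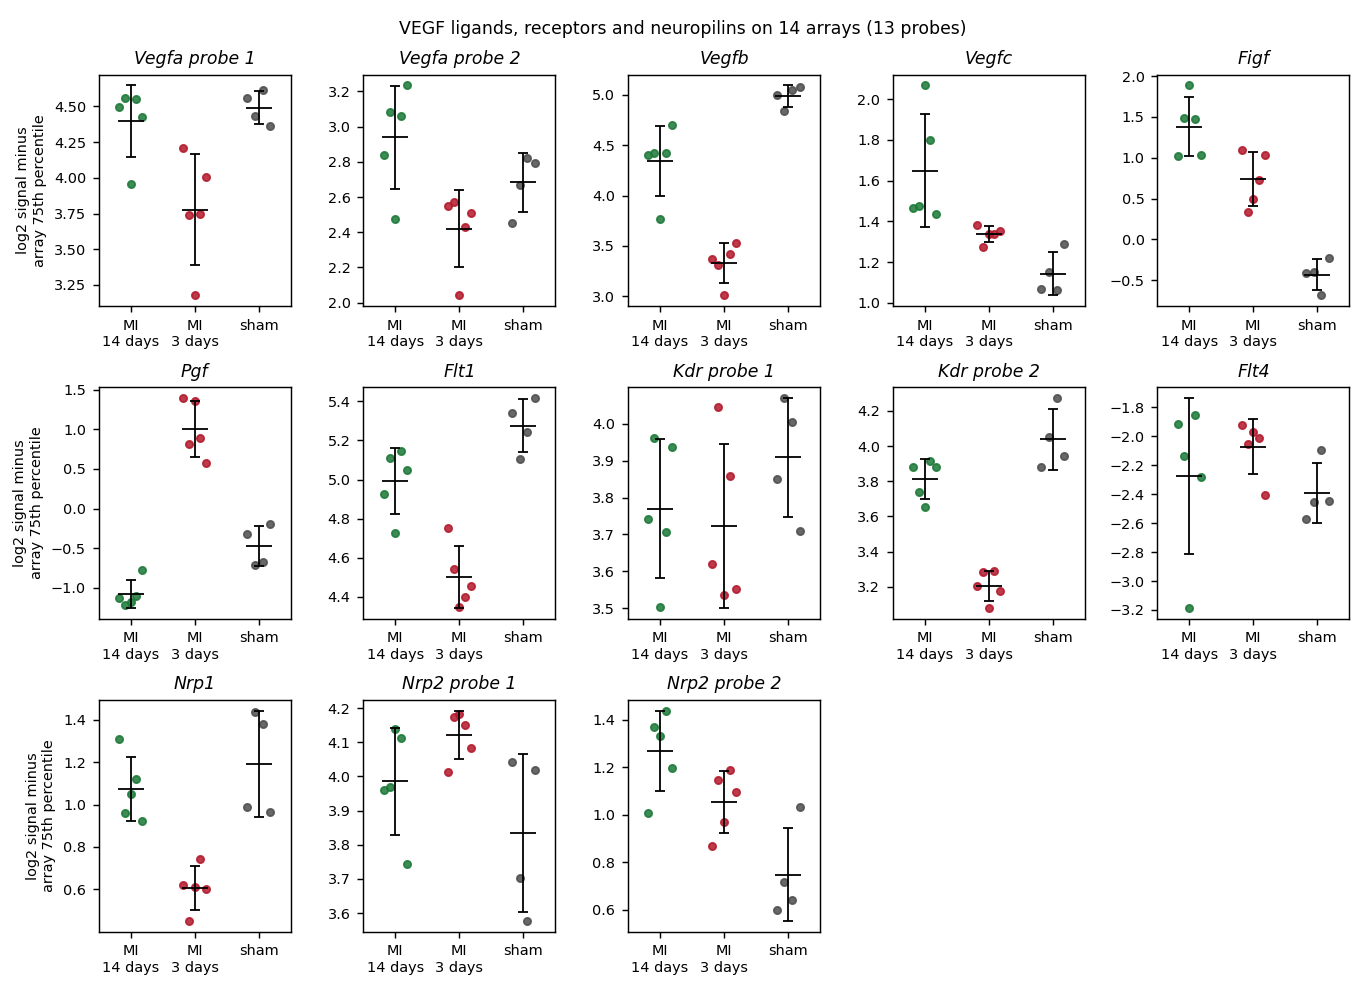
Levels of the 13 probes, as log2 signals scaled by the 75th percentile of each array, in MI 14 days, MI 3 days and sham samples; points are arrays, and bars are the mean and SD. Pgf is high only in the 5 MI 3 days samples, Figf is higher in all MI samples than in any sham sample, and the 2 Kdr probes show different patterns.

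**Figure D2:**
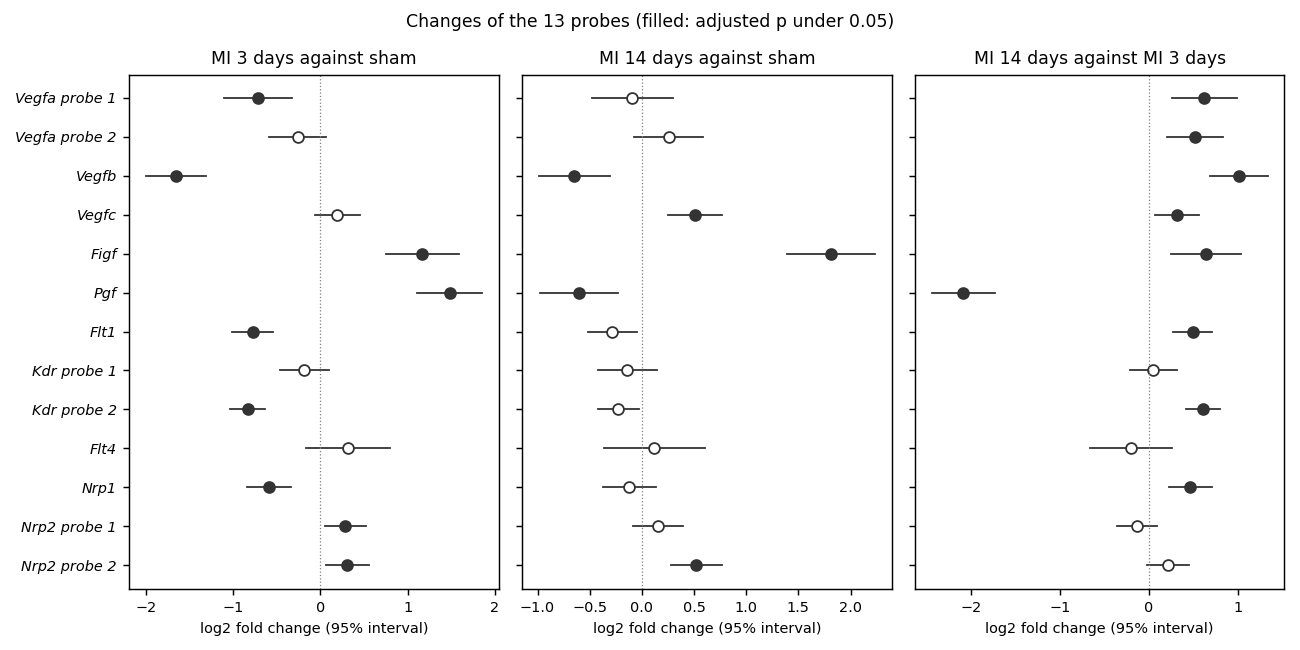
Log2 fold changes of the 13 probes with 95% confidence intervals in the 3 comparisons; filled circles passed an adjusted p of 0.05. Figf (1.81) has the highest value at 14 days against sham, and Pgf (-2.09) the lowest between the times.

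Among the ligands, Vegfb, which binds VEGFR1 and is known in heart for its link to fatty acid use, was lower after infarction at both times. Its level was 4.40, 4.42, 3.77, 4.42 and 4.70 in MI 14 days samples. It was 3.37, 3.31, 3.01, 3.42 and 3.53 in MI 3 days samples, against 4.99, 4.84, 5.05 and 5.07 in sham samples. No array of any of the 3 groups overlapped with another group, and every MI 14 days sample lay between the MI 3 days and the sham samples. At 3 days it was 3.16-fold lower than in sham (log2 change -1.66 ± 0.16, SE, adjusted p = 6.82e-07). At 14 days it was 1.57-fold lower (-0.65 ± 0.16, adjusted p = 0.00699). Its level was 2.02-fold higher at 14 than at 3 days (adjusted p = 6.70e-05). With slide as a block the 14-day change (-0.68, adjusted p = 0.0721, range 0.00277 to 0.0721) and the difference between the times (0.85, adjusted p = 0.0513, range 2.13e-06 to 0.0513) did not pass. Fewer cells of a type and less RNA per cell cannot be told apart in these bulk samples. All 10 cardiomyocyte markers were lower at 3 days against sham (39.7% of all tested probes) and 5 of 10 at 14 days (19.8%). Between the times 10 of 10 were higher at 14 than at 3 days (32.7%). Their part in the Vegfb result was not tested.

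Figf encodes VEGF-D, a ligand of VEGFR3. Its level was 1.03, 1.49, 1.89, 1.48 and 1.03 in MI 14 days samples. It was 1.10, 0.34, 0.50, 0.73 and 1.03 in MI 3 days samples, against -0.41, -0.40, -0.68 and -0.23 in sham samples. Every MI sample was above every sham sample, and the 2 MI groups overlapped. The increase was 3.51-fold at 14 days (log2 change 1.81 ± 0.20, adjusted p = 3.27e-05) and 2.25-fold at 3 days (1.17 ± 0.20, adjusted p = 0.000126). The 14-day samples exceeded the 3-day samples by 0.64 on the log2 scale (adjusted p = 0.00908). That difference did not pass with median centring (0.44, adjusted p = 0.0571), with the processed signal (0.46, 0.143) or normexp (0.46, 0.0967) on the 10 scanner arrays, or with slide as a block (0.31, 0.342), over a range of 0.00554 to 0.342. The probe is spotted 10 times on the array, and its spots had a median SD of 0.085 within an array. The largest SD was 0.243, with a range of 0.90 over the spots, in MI 14 days replicate 3, the sample with the highest level. Most fibroblast markers were higher with it, 7 of 10 at 3 days (with 1 lower) and 10 of 10 at 14 days. Over all tested probes 25.5% and 12.8% were higher at these times. The mean level of the markers was 4.62 to 5.24 in MI 14 days, 4.32 to 4.78 in MI 3 days and 3.21 to 3.35 in sham samples. Their part in the Figf result was not tested.

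Pgf encodes placental growth factor, a ligand of VEGFR1 with low expression in most adult tissues. Its level was -1.13, -1.22, -1.18, -1.10 and -0.77 in MI 14 days samples. It was 1.40, 0.82, 1.35, 0.89 and 0.58 in MI 3 days samples, against -0.32, -0.71, -0.67 and -0.20 in sham samples. The 3 groups did not overlap. At 3 days Pgf was 2.79-fold higher than in sham (log2 change 1.48 ± 0.17, adjusted p = 4.93e-06). At 14 days it was 4.25-fold lower than at 3 days (-2.09 ± 0.16, adjusted p = 2.90e-07) and 1.52-fold lower than in sham (-0.61 ± 0.17, adjusted p = 0.0168). The decrease against sham was lost with slide as a block (adjusted p = 0.0566), and without sham replicate 1 (0.0506) or 4 (0.0560), within a range of 0.00823 to 0.0566 over the alternatives. Most macrophage and neutrophil markers moved with it at 3 days (8 of 9 higher and 1 lower, with 25.5% and 39.7% over all tested probes). Their mean level was 1.79 to 2.17 in MI 14 days, 3.87 to 4.66 in MI 3 days and 0.92 to 1.41 in sham samples. Their part in the Pgf result was not tested.

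The promoters of these 3 ligands are shown because the ligands moved in different directions. They are RefSeq windows of 300 bases in build GRCm38.p6 that end shortly after the transcription start, and capitals mark the hypoxia response core (ACGTG or GCGTG on either strand).
Vegfb, chr19:6987602-6987901, minus strand: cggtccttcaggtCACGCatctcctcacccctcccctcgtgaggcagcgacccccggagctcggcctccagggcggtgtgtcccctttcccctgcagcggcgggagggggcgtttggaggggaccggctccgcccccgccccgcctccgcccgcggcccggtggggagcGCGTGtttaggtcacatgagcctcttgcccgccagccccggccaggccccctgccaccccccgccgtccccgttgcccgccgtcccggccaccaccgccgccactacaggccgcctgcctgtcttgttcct
Figf, chrX:164373272-164373571, plus strand: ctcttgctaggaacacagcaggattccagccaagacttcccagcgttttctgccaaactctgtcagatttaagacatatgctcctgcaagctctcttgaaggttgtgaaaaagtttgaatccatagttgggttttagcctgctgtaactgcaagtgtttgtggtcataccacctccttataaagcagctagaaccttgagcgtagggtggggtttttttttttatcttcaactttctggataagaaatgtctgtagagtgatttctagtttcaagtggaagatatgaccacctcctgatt
Pgf, chr12:85177264-85177563, minus strand: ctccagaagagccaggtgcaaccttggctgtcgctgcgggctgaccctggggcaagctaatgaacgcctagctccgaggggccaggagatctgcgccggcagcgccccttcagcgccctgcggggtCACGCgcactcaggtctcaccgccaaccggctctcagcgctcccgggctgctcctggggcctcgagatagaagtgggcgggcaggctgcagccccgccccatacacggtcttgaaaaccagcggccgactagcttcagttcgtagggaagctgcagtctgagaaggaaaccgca
The core occurs 2 times in the Vegfb window, 0 times in the Figf window and 1 time in this Pgf window. It is present in 43.8% of 32851 mouse promoter windows of the same length, and the AP-1 motif TGACTCA or TGAGTCA, in 5.20% of them, is in none of the members' windows. The window of the second Vegfa start holds 2 cores and that of the first 0. These matches are letters in a window and say nothing about binding in these samples.

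Vegfa, the main ligand of vessel growth, was read by 2 probes. Probe 1 (A_52_P638895) had levels of 4.50, 4.56, 3.95, 4.55 and 4.42 in MI 14 days samples. It had 4.21, 3.74, 3.18, 3.75 and 4.01 in MI 3 days samples, against 4.56, 4.43, 4.61 and 4.36 in sham samples. All MI 3 days samples were below all sham samples. It was 1.64-fold lower at 3 days (log2 change -0.71 ± 0.18, adjusted p = 0.00327) and did not pass at 14 days (-0.09, 95% interval -0.48 to 0.30, adjusted p = 0.733). With normexp background correction the 3-day change was -0.31 (adjusted p = 0.102) and with slide as a block -0.57 (0.0527), over a range of 0.00111 to 0.102. Probe 2 (A_52_P249424), designed against another transcript of the gene, had a 3-day change of -0.26 (95% interval -0.59 to 0.07, adjusted p = 0.147) and a 14-day change of 0.26 (adjusted p = 0.225). Both probes were higher at 14 than at 3 days (0.62, adjusted p = 0.00696, and 0.52, adjusted p = 0.00773). Neither difference passed with median centring (0.42, adjusted p = 0.0642, and 0.32, 0.0866), with the processed signal of the 10 scanner arrays (0.0545 and 0.110) or with slide as a block (0.137 and 0.158), and that of probe 2 also did not pass with normexp (0.31, 0.214). The ranges were 0.00189 to 0.137 and 0.00081 to 0.214. In a test chosen after the values were seen, the within-array ratio of probe 1 over probe 2 was lower against sham at 3 days (-0.45) and at 14 days (-0.35), with exact permutation p adjusted over 9 tests of 0.0476 and 0.0429.

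Vegfc, the principal lymphatic growth factor, was higher at 14 days. Its level was 1.47, 1.48, 2.07, 1.80 and 1.43 in MI 14 days samples. It was 1.38, 1.27, 1.34, 1.34 and 1.35 in MI 3 days samples, against 1.07, 1.15, 1.06 and 1.29 in sham samples. The MI 14 days samples were all above the other groups. The increase against sham was 1.42-fold (log2 change 0.51 ± 0.12, adjusted p = 0.00606), and was lost with slide as a block (0.46, adjusted p = 0.0900, range 0.00374 to 0.0900). At 3 days it did not pass (0.19, 95% interval -0.07 to 0.45, adjusted p = 0.174), but it passed with median centring (0.37, adjusted p = 0.0122) and when only those 2 groups were fitted (0.0447), over a range of 0.0122 to 0.588. The difference between the times (0.31, adjusted p = 0.0314) did not pass in 11 of 26 alternatives, among them median centring (0.11, adjusted p = 0.412, range 0.0187 to 0.412). The value within slide 3, also among the 26, had no test.

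Of the receptors, Flt1 was lower at 3 days. Its level was 4.93, 5.11, 4.73, 5.14 and 5.05 in MI 14 days samples. It was 4.75, 4.54, 4.35, 4.40 and 4.46 in MI 3 days samples, against 5.34, 5.10, 5.24 and 5.42 in sham samples. The MI 3 days and sham samples did not overlap, while MI 14 days samples overlapped with both. The decrease was 1.71-fold (log2 change -0.78 ± 0.11, adjusted p = 2.81e-05), the 14-day value was -0.28 (95% interval -0.52 to -0.05, adjusted p = 0.0617), and the level at 14 days was 0.49 above that at 3 days (adjusted p = 0.00118). With slide as a block the difference between the times did not pass (0.51, adjusted p = 0.0546, range 0.000286 to 0.0546), and with median centring it was 0.29 (0.0426). Leaving out sham replicate 2 or MI 3 days replicate 1 made the 14-day value pass (adjusted p = 0.0452 and 0.0469, range 0.0452 to 0.533).

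Kdr gave 2 answers. Probe 1 (A_55_P2094469, 1 spot) had 3.74, 3.96, 3.50, 3.71 and 3.94 in MI 14 days samples, 3.62, 4.05, 3.53, 3.86 and 3.55 in MI 3 days samples, and 3.85, 4.07, 4.005 and 3.71 in sham samples. Those groups overlapped, and no comparison passed (3 days against sham -0.19, 95% interval -0.47 to 0.09, adjusted p = 0.221). Probe 2 (A_51_P316553, 10 spots, median within-array SD 0.046) had 3.88, 3.74, 3.65, 3.92 and 3.88 in MI 14 days samples, 3.20, 3.28, 3.08, 3.29 and 3.18 in MI 3 days samples, and 3.88, 4.05, 4.27 and 3.95 in sham samples. All of its MI 3 days samples were below every other sample. It was 1.78-fold lower at 3 days than in sham (log2 change -0.83 ± 0.09, adjusted p = 3.14e-06), and 0.61 higher at 14 than at 3 days (adjusted p = 5.72e-05). The ratio of probe 1 over probe 2 was 0.65 higher at 3 days than in sham and 0.56 lower at 14 than at 3 days, each with the smallest p that the exact permutation test can give (0.0079, adjusted 0.0238 over 9 tests chosen after the values were seen). The data therefore show a decrease of Kdr at 3 days by one probe and not by the other.

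Flt4, which encodes VEGFR3, passed in no comparison by limma. Its level was -1.92, -2.14, -3.19, -1.85 and -2.28 in MI 14 days samples. It was -1.92, -2.05, -1.97, -2.01 and -2.40 in MI 3 days samples, against -2.57, -2.46, -2.09 and -2.45 in sham samples. The groups overlapped. The change was 0.32 at 3 days (95% interval -0.16 to 0.80, adjusted p = 0.227) and 0.12 at 14 days (95% interval -0.37 to 0.60, adjusted p = 0.729). Leaving out MI 14 days replicate 3, the lowest sample, narrowed the spread so that the 3-day change passed (adjusted p = 0.0449, range 0.0449 to 0.782).

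The neuropilins, co-receptors that bind VEGF ligands and class 3 semaphorins, parted at 3 days. Nrp1 had 1.31, 0.96, 1.05, 1.12 and 0.92 in MI 14 days samples. It had 0.62, 0.45, 0.61, 0.75 and 0.60 in MI 3 days samples, against 0.99, 1.44, 1.38 and 0.97 in sham samples. The MI 3 days samples were below all others. It was 1.50-fold lower at 3 days (log2 change -0.59 ± 0.12, adjusted p = 0.000583), did not pass at 14 days (-0.12, 95% interval -0.37 to 0.13, adjusted p = 0.471), and was 0.47 higher at 14 than at 3 days (adjusted p = 0.00275). The difference between the times did not pass with median centring (0.27, adjusted p = 0.114), with the processed signal (0.0732) or normexp (0.33, 0.136) on the 10 scanner arrays, or with slide as a block (0.0568), over a range of 0.00167 to 0.136.

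Nrp2 was read by 2 probes. Probe 1 (A_52_P93910) had 3.96, 3.97, 4.14, 4.11 and 3.74 in MI 14 days samples, 4.01, 4.17, 4.18, 4.15 and 4.08 in MI 3 days samples, and 4.04, 3.70, 3.58 and 4.02 in sham samples. Probe 2 (A_65_P15245) had 1.01, 1.37, 1.33, 1.43 and 1.20 in MI 14 days samples, 0.87, 1.14, 0.97, 1.19 and 1.10 in MI 3 days samples, and 0.60, 0.72, 0.64 and 1.03 in sham samples. MI and sham samples overlapped for both probes. At 3 days the probes were higher by 0.29 ± 0.11 (adjusted p = 0.0359) and 0.31 ± 0.11 (adjusted p = 0.0295). At 14 days probe 2 was 0.52 ± 0.11 higher (adjusted p = 0.00369) and probe 1 did not pass (0.15, 95% interval -0.09 to 0.39, adjusted p = 0.328). The log2 ratio of probe 1 over probe 2 was 0.37 lower at 14 days than in sham and 0.35 lower than at 3 days. The exact permutation p, adjusted over the 9 tests chosen after the values were seen, was 0.0429 and 0.0238. At 3 days against sham the ratio changed by -0.02 (0.897). With slide as a block probe 2 did not pass at 14 days (0.38, adjusted p = 0.0719, range 0.00168 to 0.0719), and with quantile normalization probe 1 did (0.33, adjusted p = 0.0351, range 0.0202 to 0.705). The 3-day calls were fragile: probe 1 stayed past the threshold in 9 of 14 fits that left out an array and probe 2 in 8 of 14. The arrays whose loss ended the call were sham replicates 2 and 3 and MI 3 days replicates 2, 3 and 4 for probe 1, and sham replicates 1, 2 and 3 and MI 3 days replicates 2, 4 and 5 for probe 2 (adjusted p up to 0.129 and 0.0881). Over all alternatives the adjusted p ran from 0.00237 to 0.202 and from 0.00267 to 0.135.

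A log2 ratio of 2 probes on one array is the same under any scaling by 1 constant per array, though not under quantile normalization. Of 18 exact two-sided permutation tests of such ratios, 12 had an adjusted p under 0.05. How many ratios of other probe pairs would pass was not tested, so this count is not a result about the family. Pgf over Vegfa was 4.58-fold higher at 3 days than in sham and 6.53-fold lower at 14 than at 3 days (adjusted p = 0.0204 each). Vegfb over Vegfa was 1.93-fold lower at 3 days (adjusted p = 0.0204) and 1.47-fold lower at 14 days (adjusted p = 0.0286) than in sham. Vegfc over Figf was 1.97-fold lower at 3 days and 2.47-fold lower at 14 days (adjusted p = 0.0204 each). Nrp1 over Nrp2 was 1.83-fold lower at 3 days (adjusted p = 0.0204). Flt1 over Kdr was 1.50-fold lower at 3 days with Kdr probe 1 (adjusted p = 0.0357), and its log2 change turned to 0.06 with the Kdr probe of 10 spots. Flt4 over Kdr was 1.42-fold higher at 3 days with Kdr probe 1 (log2 change 0.50, adjusted p = 0.0357), and passed in 6 of 14 fits that left out an array. It did not pass without any 1 of the 4 sham arrays or of MI 3 days replicates 1, 3, 4 and 5 (adjusted p up to 0.107). With the Kdr probe of 10 spots its log2 change was 1.15 at 3 days against sham, and -0.81 between the times (adjusted p = 0.0159 each). Flt1 over Kdr at 3 days passed in 7 of 14 such fits, and not without sham replicates 1, 3 or 4 or MI 3 days replicates 2, 3, 4 or 5 (adjusted p up to 0.107). Pgf over Vegfa at 14 days against sham did not pass (-0.51, adjusted p = 0.0989), but passed with quantile normalization (-0.74, adjusted p = 0.0179, range 0.0179 to 0.194). Without any 1 of MI 3 days replicates 3, 4 or 5 the number of passing ratios was 6. The 3-day ratios of Pgf and Vegfb over Vegfa, Vegfc over Figf and Nrp1 over Nrp2 then had an adjusted p of 0.0514. Against sham, leaving out an array of either group raises the smallest p that the exact test can give. Loss of a call in these fits thus does not show that a ratio rests on the array left out. Over the 14 fits the 3-day log2 change was 1.96 to 2.36 for Pgf over Vegfa and -1.01 to -0.85 for Vegfb over Vegfa. For Vegfc over Figf it was -1.06 to -0.90, and for Nrp1 over Nrp2 -1.01 to -0.72.

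**Figure D3:**
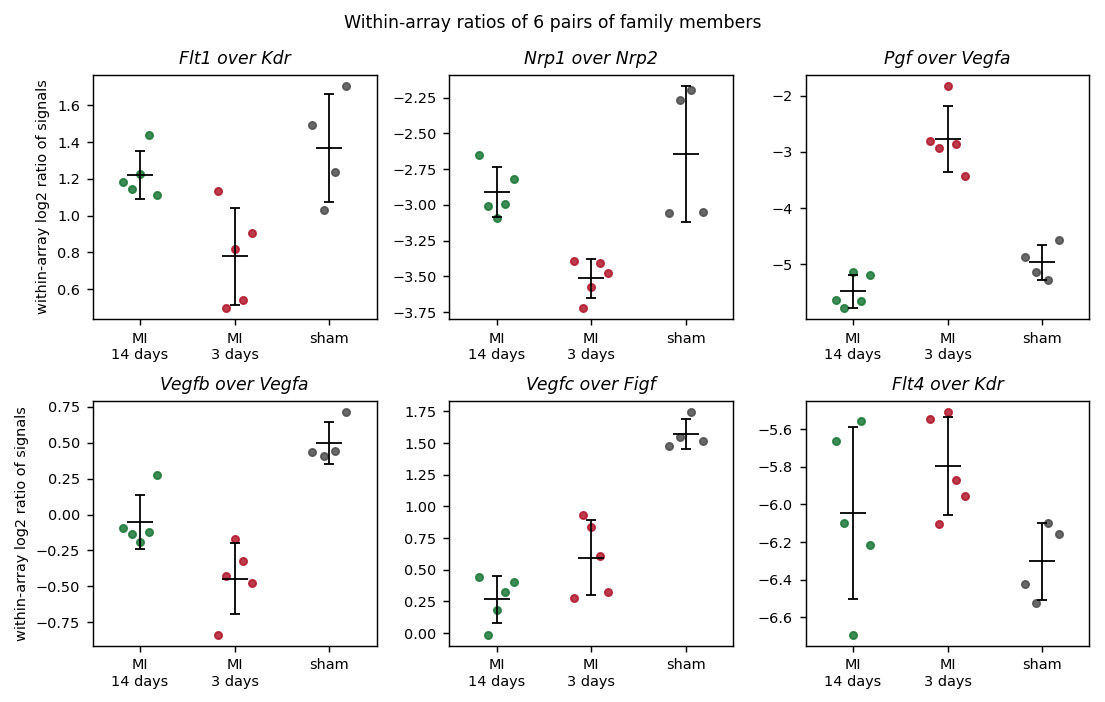
Within-array log2 ratios for 6 pairs of members in MI 14 days, MI 3 days and sham samples; points are arrays, and bars are the mean and SD. Pgf over Vegfa is high in the 5 MI 3 days samples, and Vegfc over Figf is lower in all MI samples than in any sham sample.

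The slide is known for 10 arrays. Slide 2 holds MI 3 days replicate 4 and sham replicate 3, and slide 3 holds MI 14 days replicates 3, 4 and 5, MI 3 days replicate 5 and sham replicate 4. Within slides 2 and 3, MI 3 days minus sham was -1.63 and -1.54 for Vegfb, 1.41 and 1.26 for Figf, and 1.56 and 0.78 for Pgf. It was -0.84 and -0.96 for Flt1, -0.99 and -0.77 for Kdr probe 2, -0.63 and -0.36 for Nrp1, and -0.86 and -0.35 for Vegfa probe 1. With slide as a block on those arrays, 5 of 10 members passed at 3 days, each gene being counted by its brightest probe. At 14 days 1 passed (Figf, 1.59, adjusted p = 0.00551) and between the times 1 (Pgf, -1.79, adjusted p = 0.00220). Of all 32261 tested probes, 16374, 5076 and 9129 passed in these 3 comparisons under the same setting. Kdr probe 2 also passed between the times (0.72, adjusted p = 0.0113). Within slides 1 and 3, MI 14 days minus sham was 1.43 and 1.70 for Figf, -0.51 and -0.78 for Vegfb, 0.36 and 0.48 for Vegfc, and -0.62 and -0.81 for Pgf.

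The receptors are expressed mainly by endothelial cells, so the level of other endothelial genes was set beside them. The mean level over 16 endothelial markers was 2.18 to 2.30 in MI 14 days, 2.16 to 2.29 in MI 3 days and 2.20 to 2.32 in sham samples. Of the 16 markers, 3 were higher and 2 lower at 3 days, with 25.5% and 39.7% over all tested probes. The 2 lower ones were the angiopoietin receptor Tek (-0.82 ± 0.10, adjusted p = 7.72e-06) and its relative Tie1 (-0.57 ± 0.08, adjusted p = 2.17e-05). The 3 higher ones were Ecscr (1.27 ± 0.10), the transcription factor Erg (0.47 ± 0.14) and the junction cadherin Cdh5 (0.24 ± 0.08). At 14 days Erg was higher (0.55) and the adhesion molecule Pecam1 lower (-0.30).

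Genes associated with endothelial tip cells, the cells that lead a sprout, were higher at 3 days in 12 of 12 cases, when 25.5% of tested probes were higher. Their median log2 change was 1.19. The largest changes were in Plaur, the urokinase receptor (3.13 ± 0.18), Cxcr4, a chemokine receptor (2.07 ± 0.15), Angpt2, an angiopoietin (1.64 ± 0.21), and Apln, the ligand apelin (1.48 ± 0.16). At 14 days 8 of 12 were higher (background 12.8%), with a median of 0.45, and 8 of 12 were lower at 14 than at 3 days (background 22.9%). The 3-day count was 12 of 12 under the 3 other scalings of all arrays, 11 with normexp and 10 with slide as a block. The 14-day count was 6 without MI 14 days replicate 3, 5 with median centring and 3 with slide as a block. Plaur and Cxcr4 are also made by leukocytes, and 8 of 9 macrophage and neutrophil markers were higher and 1 lower at the same time. Their part was not tested.

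**Figure D4:**
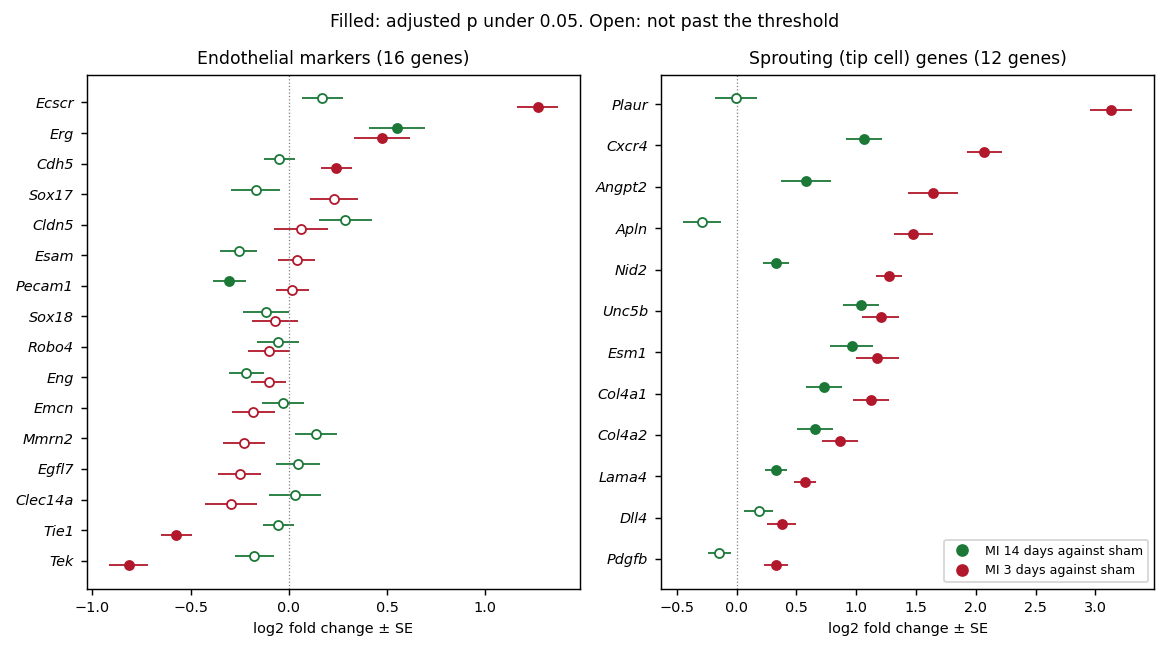
Log2 fold changes (± SE) of 16 endothelial markers and 12 sprouting genes in MI 14 days and MI 3 days samples against sham; filled circles passed an adjusted p of 0.05. All 12 sprouting genes are higher at 3 days, when 25.5% of tested probes were. Of the endothelial markers, 5 of 16 passed the test at 3 days, when 65.2% of tested probes did.

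Hypoxia-sensing genes were mostly lower at 3 days by their brightest probes: 1 of 9 was higher and 7 lower, with 25.5% higher and 39.7% lower over all probes. Of the 7, Arnt had 1 probe passing as lower and 1 as higher, and Egln2 and Egln3 each passed by 1 of 2 probes. Hif1a, an oxygen-regulated transcription factor, was higher (1.60 ± 0.17, adjusted p = 1.55e-06). Its relatives Epas1 (-1.17 ± 0.10, with 1 of 3 tested probes passing as lower) and Hif3a (-1.33 ± 0.35) and the oxygen-sensing hydroxylase Egln1 (-1.93 ± 0.18) were lower. Of 15 hypoxia-inducible targets, 9 were higher and 3 lower. The highest changes were in Hmox1, heme oxygenase (4.92 ± 0.17), Slc16a3, a lactate transporter (4.34 ± 0.17), and Car9, a carbonic anhydrase (3.38 ± 0.34). Hexokinase Hk2 was lower (-1.08 ± 0.08). At 14 days 5 targets were higher and 2 lower, with 12.8% and 19.8% over all tested probes. Vegfa, itself a classical hypoxia target, did not pass as higher at either time. With median centring 3 hypoxia-sensing genes were lower at 3 days, and with slide as a block 2 targets were higher at 14 days.

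Genes for the processing of VEGF-C and VEGF-D gave 1 higher and 1 lower of 5 at 3 days (Adamts14, 1.72 ± 0.14, and Ccbe1, -0.59 ± 0.16). Of their tested probes, 1 of 2 passed as higher for Adamts14 and 2 of 3 as lower for Ccbe1. At 14 days the proprotein convertase Pcsk5 (1.44 ± 0.18) and Adamts14 (0.55 ± 0.14, by 1 of 2 probes) were higher and Furin was lower (-0.57 ± 0.11). Of 25 signal transducers of the receptors, 7 were higher and 10 lower at 3 days, with 25.5% higher and 39.7% lower over all tested probes, so the counts are near the background. The higher ones included Prkcb, a protein kinase C (1.92 ± 0.11), and Rcan1, a calcineurin regulator induced by VEGF signalling (1.49 ± 0.14). The lower ones included Gab1, a docking protein (-0.86 ± 0.12), and Ptpn11, the phosphatase SHP2 (-0.86 ± 0.10). With median centring 9 were higher and 7 lower. At 14 days 3 were higher and 4 lower, with 12.8% and 19.8% over all tested probes, so these counts are near the background too. Of 12 semaphorins and plexins, 3 were higher and 4 lower at 3 days (25.5% and 39.7% over all tested probes). At 14 days 5 were higher and 0 lower (12.8% and 19.8%). Among them Plxna3 (1.66 ± 0.12 and 1.60 ± 0.12) was higher at both times and Sema3d (1.75 ± 0.25) at 14 days. Both were dim in sham samples (mean levels -4.33 and -3.81), being well above background on 3 of 4 sham arrays. They therefore passed the filter only through the MI groups. With slide as a block 1 semaphorin or plexin was lower at 3 days and 2 were higher at 14 days, and 1 transducer was lower at 14 days. Of 4 lymphatic markers measured, Prox1 (-1.87 ± 0.19), Lyve1 (-0.95 ± 0.18) and Mmrn1 (-1.12 ± 0.17) were lower and Pdpn (2.58 ± 0.17) higher at 3 days; Prox1 is also made by cardiomyocytes and Pdpn by fibroblasts.

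The genes with patterns nearest to the members other than Kdr over the 14 arrays were found by the root mean square difference of levels relative to the sham mean. For Pgf the nearest was Apln (0.269), with changes of 1.48 at 3 days and -0.29 at 14 days. For Vegfb it was Nudt8 (0.076), for Figf Mmp23 (0.219) and for Flt1 Pstpip2 (0.087). For Vegfa it was Pde1c (0.151), for Vegfc Rep15 (0.093), for Flt4 Gk5 (0.182), for Nrp1 Ankmy2 (0.129) and for Nrp2 Klhl25 (0.090).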

How the data were processed

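RNA from each sample was labelled with Cy3 and hybridised to an Agilent mouse array, read with Feature Extraction 10.7.3.1, per the file headers; the labels describe both poly-T purification and labelling of total RNA. The deposited intensity values for 14 arrays equal the scanner's processed signal, within 1e-05, wherever 10 scanner files allowed a comparison. The submitters' processing notes name limma without a role. Probes were named by matching transcript accessions to RefSeq (GRCm38.p6), since the scanner files used here have no gene name column. Log2 signals minus each array's 75th percentile were fitted for all 14 arrays with limma 3.58.1 (R 4.3.3), with Benjamini-Hochberg adjustment over 32261 probes. A probe was tested where, in at least 1 group, all scanner arrays had it well above background. The brightest probe stood for a gene. Normexp used median signals, since mean signals were not in the files. Changes of log2 ratios were tested by exact permutation. All 10 members were named, with every endothelial marker that passed against sham, up to 4 genes a comparison of each other list and the nearest genes to each member. Genes of the other lists were taken from the larger changes in either direction, not strictly by size. At 3 days, for example, Slc2a1 (1.25) and Pfkfb3 (1.19) changed more than Hk2 (-1.08) and were not named. The members and lists were chosen with earlier results of these data known. Precision is limited by how many arrays there are. The limma script was tested on simulated data. The gene with the pattern nearest to Kdr is not reported here.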

Additional observations from a re-analysis of the deposited data

Results flagged for a closer look

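Among 39 probe-by-group sets, 4 held 1 array far from the rest by Dixon's criterion at 95%, which chance alone gives in about 5% of sets. They were Vegfa probe 1 in MI 14 days replicate 3 (3.95), Vegfa probe 2 in MI 3 days replicate 3 (2.04), Pgf in MI 14 days replicate 5 (-0.77) and Flt4 in MI 3 days replicate 5 (-2.40).

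The change against sham differed between 14 and 3 days, by limma's test of the difference, for 9 probes. The 14-day change minus the 3-day change was 0.62 for Vegfa probe 1, 0.52 for Vegfa probe 2, 1.01 for Vegfb, 0.31 for Vegfc, 0.64 for Figf, -2.09 for Pgf, 0.49 for Flt1, 0.61 for Kdr probe 2 and 0.47 for Nrp1.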

How the results depend on the processing

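The 3-day changes of Vegfb, Figf, Pgf, Flt1, Kdr probe 2 and Nrp1 kept their direction and call under every alternative that gave a test. Members past the threshold numbered 5 to 8 at 3 days, 1 to 5 at 14 days and 1 to 8 between the times over the alternatives. Of all probes, 15406 to 21548, 5076 to 10795 and 9129 to 18430 passed, with 32261 tested in most alternatives. With slide as a block on 10 arrays, 5076 probes passed at 14 days against sham and 9129 between the times, and 1 member passed in each. Between the times, 10548 probes and 4 members passed with normexp, 12388 and 3 with the scanner values, and 15974 and 4 with median centring. Leaving out single arrays gave 6 to 12 passing ratios, against 12 with all arrays. Against sham, fewer arrays raise the smallest p that the exact permutation test can give. Median centring moved the median of all probes to -0.01 at 3 days against sham and -0.06 between the times (from -0.19 and 0.13 with the 75th percentile), and the share of calls that were higher to 51.0% and 38.6%, beside 39.1% and 58.8%. At 14 days against sham that share was 39.2%, and 53.0% with the percentile over tested probes.

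Some changes turned sign, among them 2 ratios that had passed. At 14 days against sham, Vegfa probe 1 was 0.094 with quantile normalization, 0.17 with normexp, 0.081 as the mean of its probes and -0.14 to 0.017 with single arrays left out (above 0 without MI 14 days replicate 3), Kdr probe 1 was 0.034 with quantile normalization and 0.045 with normexp, and Nrp1 was 0.039 with slide as a block. Between the times, Kdr probe 1 was -0.15 with median centring and -0.000307 to 0.13 with single arrays left out (below 0 without MI 14 days replicate 2), Flt4 was 0.085 with slide as a block and -0.31 to 0.027 with single arrays left out (above 0 without MI 14 days replicate 3), and Nrp2 probe 1 was 0.039 as the mean of its probes. With the Kdr probe of 10 spots, an alternative added after seeing the data, Flt1 over Kdr, which had passed in both comparisons, was 0.058 at 3 days against sham and -0.12 between the times. The cause was not tested.

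Replicate numbers did not pair the samples: same-numbered samples had correlations of -0.135 to 0.2245. With replicate number as a block, 20969, 10383 and 17841 probes passed at 3 days against sham, 14 days against sham and between the times, against 21042, 10492 and 17947 without it, and Nrp2 probe 2 passed between the times (0.21, adjusted p = 0.0356).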
